A study of Mus musculus with 167 samples.

Results

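The miR-101 family was followed through the mature microRNA (miRNA) counts of 5 mouse tissues as the rows named miR-101a, miR-101b and miR-101c. These are 4 of the 1915 rows in each table, namely miR-101a-3p, miR-101a-5p, miR-101b-3p and miR-101c. The family was selected on measured values, the lower miR-101c counts in the lungs of irradiated C3H mice, so every value of that contrast is given here as a description without a test. The libraries came from C3Hf/Sed/Kam (C3H) and C57Bl/6 (C57) mice, young adults at exposure, that had undergone whole thorax lung irradiation (WTLI), a single X-ray exposure of the chest of anaesthetised mice behind a lead shield that left the thorax open, or had been sham irradiated. The dose was set for each strain from its own lethality curve, and only mice alive at the end of the study were sampled. Whole lung, heart and brain homogenates and 2 blood fractions, leukocytes (WBC) and erythrocytes (RBC), were sampled at month 4 (C3H) or month 6 (C57), so strain and month cannot be told apart. Lung, heart, brain and RBC libraries came from 8 sham and 7 irradiated C3H mice, all female, from 15 sham C57 mice (7 female, 8 male) and from 5 irradiated C57 mice (1 female, 4 male). WBC libraries came from 5 sham and 6 irradiated C3H mice and from 11 sham and 5 irradiated C57 mice, and each of the 35 mice could give 1 library per tissue.

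A miRNA guides the silencing machinery to messenger RNAs that pair with its seed, bases 2 to 8 from its 5′ end, and lowers their translation and stability. The miR-101 family is known for repressing Ezh2, the methyltransferase that places the repressive trimethyl mark on histone H3 lysine 27, and Atm, the kinase that starts the response to DNA double-strand breaks. In the hairpin precursor the guide lies on the 3′ arm, and the 5p product is the passenger strand that is mostly degraded.

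The mature sequences are shown because the seed and the overlap between the names decide how the rows can be read. They were taken from RefSeq on GRCm38.p6 and are written 5′ to 3′ with the seed in capitals. MiR-144-3p, an erythroid miRNA of another gene, is added because it shares bases 2 to 7 with miR-101a-3p.
mmu-miR-101a-3p: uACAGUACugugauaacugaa
mmu-miR-101c: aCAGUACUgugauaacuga
mmu-miR-101b-3p: gUACAGUAcugugauagcu
mmu-miR-101a-5p: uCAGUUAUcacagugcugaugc
mmu-miR-144-3p: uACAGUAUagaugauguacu

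All of miR-101c, 19 bases, lies within miR-101a-3p as its bases 2 to 20. A read of these bases fits both names, and how such reads were assigned was not stated. MiR-101b-3p shares a run of 15 bases with miR-101a-3p that begins at its own base 2, so the same core stands 1 base further from the 5′ end and the annotated seeds of the names are offset from each other. After this core the difference is A16G, counted from 1 at the 5′ end of miR-101a-3p. The precursor of miR-101a is shown with both arms in capitals, the 5p arm first, because miR-101c lies within its 3p arm.
Mir101a: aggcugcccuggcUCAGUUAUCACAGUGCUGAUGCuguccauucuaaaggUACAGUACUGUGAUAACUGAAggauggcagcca
The Mir101a precursor (chr4:101346945-101347027, minus strand) lies in an exon of the long non-coding RNA E130102H24Rik, on the same strand. Mir101b (chr19:29135279-29135375, plus strand) lies in an intron of Rcl1, an RNA processing gene, on the same strand. Mir101c (chr9:3038669-3038743, minus strand) overlaps no annotated gene, and the nearest, Gm10715, is 353 bases away. Nested names are rare in the tables: among the 1623 names with a sequence, 4 pairs had one sequence whole within the other. In lung, miR-101c and the name that holds it were the pair with the most counts, and miR-101c made up 0.76% of their sum.

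Library totals ran from 1794995 to 7865102 counts, and no pair of libraries within a group agreed within sampling noise. Cardiac muscle miRNAs were highest in 35 of 35 heart libraries and neuronal miRNAs in 35 of 35 brain libraries, whereas neither the erythrocyte nor the leukocyte markers set the RBC fraction apart from the WBC fraction. Some libraries stood apart. The heart library of irradiated C3H mouse 2082 had a summed cardiac level of 50690 reads in 1000000 (RPM), with the next heart library at 152407 RPM. The heart library of sham C3H mouse 2075 had a leukocyte level of 10253 RPM, with the next at 3355 RPM. In C3H RBC, irradiated mice 2092 and 2094 had 338 and 318 miRNAs detected. Values without these libraries are given where a result rests on them. The titles also carry a letter, A or B, of unstated meaning, and values within each letter are given where they bear on a result.

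MiR-101a-3p was one of the abundant miRNAs of each tissue, and the other names were minor beside it. Its mean level ranked between 13th, in brain, and 24th, in WBC, of the 1915 miRNAs. Its share of the family's counts was lowest in a WBC library, at 95.49%, and its median share by tissue ran from 98.4% to 99.4%. The median share of miR-101c within the family was highest in lung, at 0.763%, and that of miR-101b-3p was highest in RBC, at 1.11%. MiR-101a-5p had at most 28 counts in any library and at most 1 count in any blood library. The opposite arm of miR-101b, miR-101b-5p, had 6 counts in all, spread over 5 libraries, and is not used further. RPM are counts in 1000000 of the library total, with no correction for length. Shares and ratios between names are therefore those of counts, and how far they follow the amounts of RNA was not tested.

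**Figure D1:**
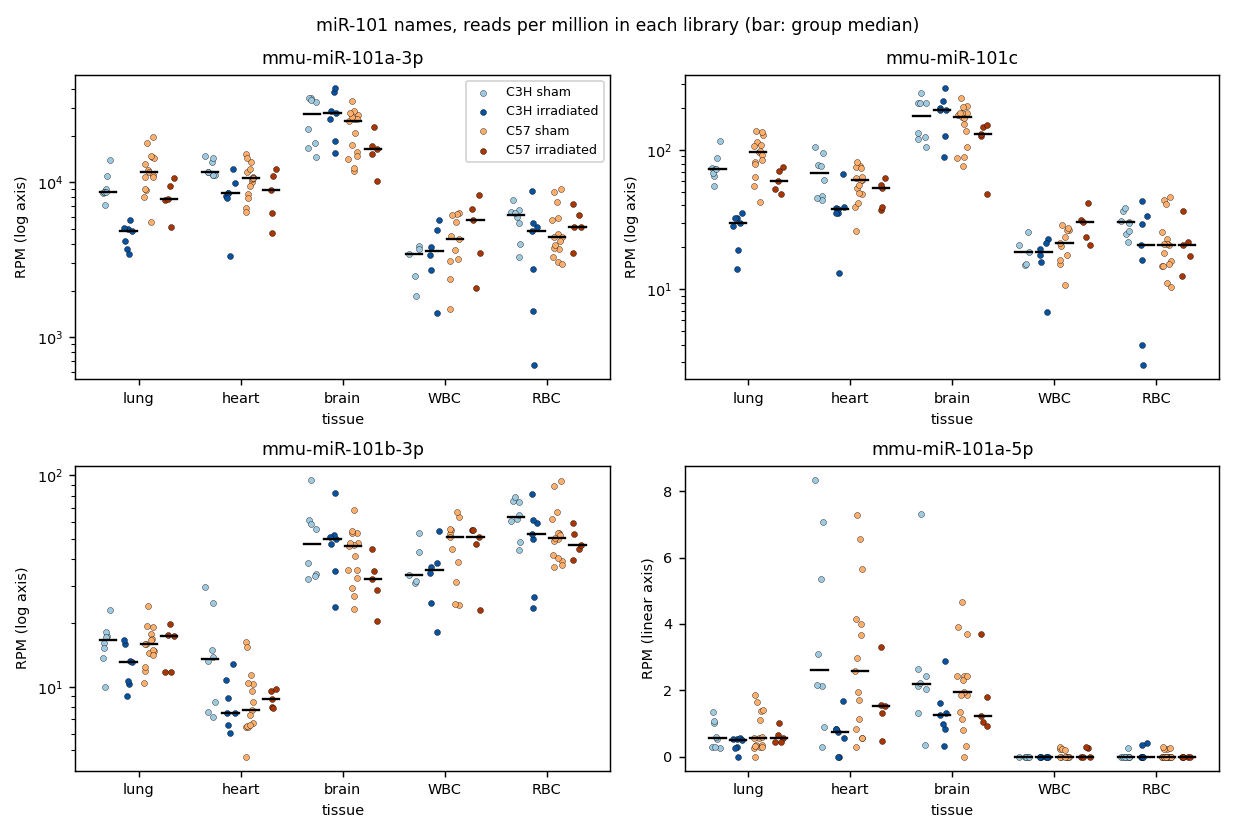
Level of each miR-101 name in RPM (vertical axis; logarithmic except for miR-101a-5p, which is linear) by tissue (horizontal axis). Each point is 1 library, coloured by strain and irradiation, and the bar is the group median. In C3H lung the 7 irradiated libraries lie between 3465 and 5713 RPM for miR-101a-3p, below all 8 sham libraries.

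In sham mice miR-101a-3p was highest in brain and lowest in WBC. Sham C3H brain libraries ran from 14616 through a median of 27513 to 35159 RPM, and sham C57 brain libraries from 11853 through 24697 to 33252 RPM. Heart and lung followed, with medians of 11615 and 8672 RPM in C3H and of 10625 and 11659 RPM in C57, and their ranges overlapped. RBC had medians of 6120 RPM in C3H and 4403 RPM in C57, and WBC of 3421 and 4288 RPM. The ranges of each neighbouring pair in this order overlapped. The tissues came from the same mice, and within a mouse brain was above the next tissue in 8 of 8 sham C3H mice (heart) and in 15 of 15 sham C57 mice (lung). Within C3H mice heart was above lung in 7 of 8, lung above RBC in 8 of 8 and RBC above WBC in 5 of 5 mice with both. Within C57 mice lung was above heart in 10 of 15, heart above RBC in 14 of 15 and RBC above WBC in 6 of 11. These counts are descriptions.

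MiR-101c kept the order of the solid tissues above blood. In sham C3H mice its medians were 174 RPM in brain, 73.3 in lung, 68.9 in heart, 30.3 in RBC and 18.5 in WBC. Heart, at 43.9 RPM or more, did not overlap RBC, at 38.3 RPM or less, and the other neighbours overlapped. In sham C57 mice, where all neighbours overlapped, the medians were 172 RPM in brain, 97.2 in lung, 60.7 in heart, 20.7 in RBC and 21.4 in WBC. Within a mouse brain was above lung in 8 of 8 C3H and 14 of 15 C57 mice, and lung above heart in 6 of 8 and 14 of 15.

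MiR-101b-3p had another order, with blood at the level of brain and above lung and heart. Its sham C3H medians were 63.5 RPM in RBC, 47.1 in brain, 34.0 in WBC, 16.6 in lung and 13.6 in heart. WBC, at 31.0 RPM or more, did not overlap lung, at 23.1 RPM or less, while the other neighbours overlapped. The sham C57 medians were 50.5 RPM in RBC, 51.1 in WBC, 46.2 in brain, 15.9 in lung and 7.72 in heart, and all neighbours overlapped. Within a mouse brain was above lung in 15 of 15 C57 mice and lung above heart in 15 of 15, but lung was above heart in 5 of 8 C3H mice, and RBC above brain in 5 of 8 C3H and 9 of 15 C57 mice. The number of miR-101a-3p counts for each miR-101b-3p count therefore had medians of 583 in lung, 883 in heart and 548 in brain of sham C3H mice, whereas the medians were 80.1 for WBC and 85.9 for RBC. The highest of the sham C3H blood libraries, at 105, lay below the lowest of the sham C3H lung, heart and brain libraries, at 368.

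MiR-101a-5p was at the limit of detection. Its sham medians were 2.62 RPM in heart, 2.18 in brain and 0.564 in lung of C3H mice and 2.59, 1.95 and 0.570 RPM in C57 mice, with overlapping ranges. It passed the filter on low counts in heart and brain only, whereas the other names passed it in all 5 tissues.

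MiR-101c and miR-101a-3p were lower in the lungs of irradiated C3H mice than in those of sham C3H mice, and miR-101b-3p less clearly so. MiR-101c ran from 55.5 through a median of 73.3 to 116 RPM in the 8 sham libraries and from 13.98 through 29.9 to 35.2 RPM in the 7 irradiated libraries. Irradiated libraries lay below all sham libraries in 7 of 7 cases. The quantile-normalised log2 change of miR-101c was -1.87 (SE 0.25), a level 0.274 times that of the sham libraries and the lowest change of the 350 miRNAs tested in lung.

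MiR-101a-3p ran from 7133 through 8672 to 13952 RPM in the sham lungs and from 3465 through 4832 to 5713 RPM in the irradiated lungs. These groups did not overlap either, and the log2 change was -1.01 (SE 0.17). How many of all miRNAs separated in this way was not counted. As background, 117 of the 350 miRNAs had a limma adjusted p under 0.05 in this contrast. MiR-101b-3p ran from 10.02 through 16.6 to 23.1 RPM in the sham lungs and from 9.06 through 13.1 to 16.6 RPM in the irradiated lungs. Its groups overlapped, with 7 of 7 irradiated libraries below the sham median of 16.60 RPM and 1 of 7 below all sham libraries, and its log2 change was -0.82 (SE 0.18), or -0.36 with scaling by library size alone. MiR-101a-5p had 1 to 5 counts in the sham lungs and 0 to 2 counts in the irradiated lungs, too few for a fold.

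A miRNA was called changed in any comparison at an adjusted p under 0.05 and a log2 change of at least 1.17 in size. In the C3H lung contrast 9.71% of the miRNAs tested passed this rule, given as background only, and no call is given for the names. Within letter A the log2 changes were -1.11 for miR-101a-3p, -1.14 for miR-101b-3p and -2.29 for miR-101c, and within letter B they were -0.91, -0.55 and -1.50. Before normalisation the mean of miR-101b-3p in letter A was 18.1 RPM in sham and 9.98 RPM in irradiated lungs. In letter B it was 14.6 and 14.7 RPM, so in RPM this name was lower in letter A alone. With scaling by library size alone the median log2 change of all miRNAs was 0.27 in this contrast, against -0.08 after quantile normalisation, and that of miR-101c was -1.51. In these bulk samples fewer cells of a type and less RNA per cell cannot be told apart. Summed marker levels are given for the same groups without a test. The summed level of the 4 cardiac muscle markers ran from 4759 to 7515 RPM in sham and from 2569 to 5226 RPM in irradiated C3H lungs, that of the 2 endothelial markers from 380361 to 444378 RPM and from 297017 to 390147 RPM, and that of the 4 erythrocyte markers from 181 to 1134 RPM and from 289 to 2823 RPM. The 5 leukocyte markers ran from 3397 to 4826 RPM and from 2552 to 7019 RPM, and the 5 epithelial markers from 12588 to 22592 RPM and from 8381 to 22738 RPM. Their part in the lower miR-101 levels was not tested.

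In C57 lung miR-101c was the only one of the 3 names tested that passed the test, and by a smaller amount than the call rule asks for. It measured 52.1, 59.9, 75.0, 71.1 and 48.4 RPM in the 5 irradiated lungs, and ran from 42.7 through 97.2 to 137 RPM in the 15 sham lungs. Irradiated libraries lay below the sham median in 5 of 5 cases, but the ranges overlapped. The log2 change was -0.69 (SE 0.24, limma adjusted p = 0.0437), and 7.14% of all 350 miRNAs were lower at this adjusted p. Of the 28 alternative settings 10 kept the adjusted p under 0.05, among them edgeR and DESeq2, and the adjusted p ran from 0.00409 to 0.313 over all of them. It was 0.0505 with letter as a covariate, 0.0516 with scaling by library size alone and 0.105 with no filter on low counts. Leaving out irradiated mouse 1089 gave 0.123 and leaving out irradiated mouse 1056 gave 0.0985. Summed marker levels in sham and irradiated C57 lungs were 106 to 2121 and 81.0 to 471 RPM for the 4 erythrocyte markers, 2724 to 7697 and 2701 to 8560 RPM for the 4 cardiac muscle markers, and 56.6 to 192 and 121 to 557 RPM for the 3 neuronal markers. For the 5 leukocyte markers they were 2393 to 9748 and 5564 to 6829 RPM, for the 2 endothelial markers 212137 to 451412 and 285337 to 352260 RPM, and for the 5 epithelial markers 15674 to 37452 and 22664 to 32542 RPM. The ranges overlapped for each list, and of the 23 markers miR-499-5p was lower, at -1.15 (limma adjusted p = 0.0401), and miR-9-5p higher, at 1.33 (adjusted p = 0.0326). The 4 erythrocyte markers were between -1.22 and -0.89, with a smallest adjusted p of 0.144. The part of these markers in the lower miR-101c was not tested.

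MiR-101a-3p measured 7680, 7762, 10677, 9473 and 5162 RPM in the irradiated C57 lungs against 5529 through 11659 to 19604 RPM in the sham lungs. All 5 values lay below the sham median within overlapping ranges, and the log2 change was -0.33 (SE 0.17, limma adjusted p = 0.171). This value depended on the method, since it was -0.73 with edgeR (adjusted p = 0.0163), -0.72 with DESeq2 (adjusted p = 0.00791) and -0.55 with limma on library size alone (adjusted p = 0.0399). MiR-101b-3p measured 11.7, 17.6, 17.4, 19.8 and 11.8 RPM against 10.4 through 15.9 to 24.0 RPM. Irradiated libraries stood on both sides of the sham median, and the log2 change was -0.24 (SE 0.17, limma adjusted p = 0.312). By the call rule limma voom called 0 of the 3 names against 6% of all miRNAs, 1 name had an unadjusted p under 0.05, and edgeR and DESeq2 also called 0. Whether the lung changes differ between the strains was not tested, since the C3H contrast had led to the choice of the family.

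**Figure D2:**
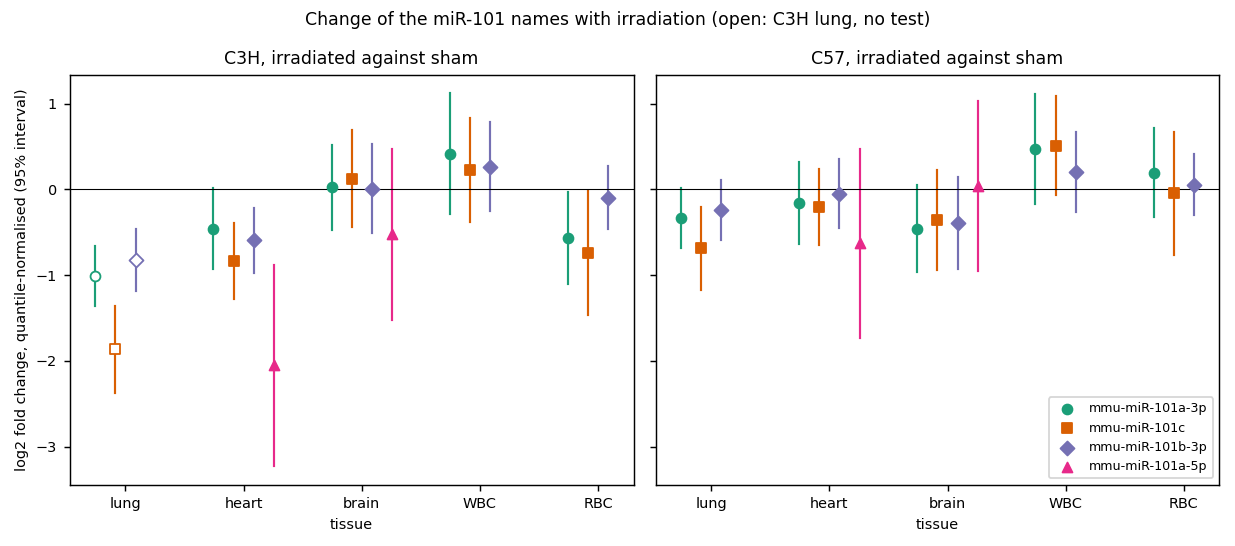
Log2 change of each miR-101 name between irradiated and sham mice after quantile normalisation (vertical axis, with 95% interval) by tissue (horizontal axis), in C3H (left) and C57 mice (right). Open symbols mark C3H lung, where no test was made. The lowest values are those of miR-101a-5p in C3H heart, at -2.05, and of miR-101c in C3H lung, at -1.87.

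In C3H heart, which lies in the irradiated field like the lung, miR-101b-3p and miR-101c fell, while miR-101a-3p missed the threshold and miR-101a-5p is given by its values. MiR-101c ran from 43.9 through 68.9 to 106 RPM in the 8 sham hearts and from 13.0 through 37.6 to 67.1 RPM in the 7 irradiated hearts. All but 1 of the irradiated libraries lay below all sham libraries. Its log2 change was -0.84 (SE 0.22, limma adjusted p = 0.00683), a level 0.560 times that of the sham hearts. The hearts and lungs came from the same mice, so they are not independent sets of animals.

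MiR-101b-3p ran from 7.22 through 13.6 to 29.5 RPM in the sham hearts and from 6.04 through 7.52 to 12.8 RPM in the irradiated hearts, with 7 of 7 irradiated libraries below the sham median and overlapping ranges. Its log2 change was -0.59 (SE 0.19, limma adjusted p = 0.0249). The log2 change was -0.48 without sham mouse 2076 (limma adjusted p = 0.0717), -0.53 without irradiated mouse 2092 (adjusted p = 0.0563), -0.59 with no filter (adjusted p = 0.0640) and -0.70 with scaling by library size alone (adjusted p = 0.0643). It was -0.60 within letter A (limma adjusted p = 0.0767) and -0.52 within letter B (adjusted p = 0.339). At an adjusted p under 0.05 the share of all miRNAs that were lower in C3H heart was 6.41%, and 6.73% passed the call rule, in either direction, where miR-101b-3p and miR-101c did not.

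MiR-101a-5p, the passenger arm, had the lowest log2 change of the 312 miRNAs tested in heart. In the sham hearts of letter A it had 10, 18, 25 and 28 counts, and in those of letter B 5, 3, 1 and 6 counts. In the irradiated hearts it had 5, 3 and 0 counts with letter A and 2, 0, 3 and 4 counts with letter B. The high values were those of the 4 sham libraries of letter A, while the sham libraries of letter B overlapped the irradiated ones. The filter was met at 2.98 RPM by 4 of 8 sham and 0 of 7 irradiated C3H hearts, so in this strain the name entered the test through its high group, and its value is given as a description, with no test from the filtered counts. The log2 change was -2.05 (SE 0.58), or -2.84 within letter A alone and -1.17 within letter B alone. With no filter on low counts it was -2.04 and missed the threshold (limma adjusted p = 0.0714).

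MiR-101a-3p, the abundant strand of the same precursor, ran from 11065 through 11615 to 14747 RPM in the sham hearts and from 3326 through 8457 to 12225 RPM in the irradiated hearts. On the scale of RPM 6 of 7 irradiated libraries lay below all sham libraries. After quantile normalisation the log2 change was -0.46 (SE 0.23, limma adjusted p = 0.165), which missed the threshold. With scaling by library size alone it was -0.66 (limma adjusted p = 0.0319), with edgeR -0.50 (adjusted p = 0.0714) and with DESeq2 -0.51 (adjusted p = 0.0663). Within letter A it was -0.58 (limma adjusted p = 0.193) and within letter B -0.38 (adjusted p = 0.603).

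The letters also separated the sham hearts. MiR-101c ran from 77.1 to 106 RPM in sham letter A and from 43.9 to 60.7 RPM in sham letter B, and from 35.1 to 38.8 RPM in irradiated letter B. Within letter B its log2 change was -0.56 (limma adjusted p = 0.318) and within letter A -1.15 (limma adjusted p = 0.0409), on 3 or 4 libraries a group. Without irradiated mouse 2082, whose heart had few cardiac miRNA reads, the log2 changes were -0.30 for miR-101a-3p, -1.96 for miR-101a-5p, -0.61 for miR-101b-3p and -0.67 for miR-101c, and the limma adjusted p stayed under 0.05 for miR-101b-3p and miR-101c. Over all 7 irradiated hearts the summed cardiac level ran from 50690 to 246805 RPM, against 216176 to 291001 RPM in the sham hearts. The leukocyte markers ran from 833 to 2656 RPM and from 1065 to 10253 RPM, and the erythrocyte markers from 331 to 1722 RPM and from 608 to 2740 RPM. The endothelial markers ran from 337464 to 416562 RPM and from 295324 to 352841 RPM, the epithelial markers from 30.7 to 237 RPM and from 87.4 to 942 RPM, and the neuronal markers from 438 to 629 RPM and from 471 to 1015 RPM. The ranges overlapped for each list. Of the 23 markers 4 were lower in the irradiated hearts by limma, miR-451a at -1.33 (adjusted p = 0.0260) and miR-144-5p at -1.09 (adjusted p = 0.0112) of the erythrocyte list, the lymphocyte miRNA miR-150-5p at -1.63 (adjusted p = 1.42e-09) and the cardiac miR-499-5p at -0.85 (adjusted p = 0.00613). The 5 epithelial markers lay between -0.92 and -0.34, and 0 of them passed the test. Their part in the changes was not tested.

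In C57 heart 0 of the 4 names passed the test. The log2 changes were -0.16 (SE 0.23) for miR-101a-3p, -0.63 (SE 0.54) for miR-101a-5p, -0.05 (SE 0.20) for miR-101b-3p and -0.21 (SE 0.22) for miR-101c. The smallest limma adjusted p was 0.646, 0 of the 4 had an unadjusted p under 0.05, and edgeR and DESeq2 called 0, in a contrast where 0.962% of all miRNAs were called by limma voom. MiR-101c measured between 37.1 and 62.8 RPM in the 5 irradiated hearts and between 26.1 and 81.8 RPM in the 15 sham hearts. The irradiated values thus lay within the sham range. The difference between the strains was itself tested in heart. It was -0.63 (95% interval -1.25 to -0.01) for miR-101c, with an unadjusted limma p of 0.048 and an adjusted p of 0.292. For miR-101b-3p it was -0.54 (95% interval -1.09 to 0.01, limma adjusted p = 0.294) and for miR-101a-3p -0.30 (-0.97 to 0.37, adjusted p = 0.610). For miR-101a-5p it was -1.42, given as a description because its C3H value entered through its high group. A difference between the strains was therefore not shown in heart for miR-101a-3p, miR-101b-3p or miR-101c, and 0% of all miRNAs were called for it.

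In brain, which was shielded, 0 of the 4 names passed the test in either strain, and 0% of the 433 miRNAs were called by limma voom. In C3H brain miR-101a-3p ran from 14616 through 27513 to 35159 RPM in sham and from 15381 through 28122 to 40319 RPM in irradiated mice. The groups overlapped, and the log2 changes were 0.02 for miR-101a-3p (SE 0.25), 0.01 for miR-101b-3p (SE 0.25), 0.12 for miR-101c (SE 0.28) and -0.53 for miR-101a-5p (SE 0.49), all at a limma adjusted p of 0.997. The letters separated the sham C3H brains, with miR-101a-3p at 14616 to 21969 RPM in letter A and at 33057 to 35159 RPM in letter B. MiR-101b-3p and miR-101c were likewise apart, the latter at 105 to 132 RPM and at 217 to 256 RPM. Within letter A the log2 changes of miR-101a-3p, miR-101b-3p and miR-101c were 0.16, 0.06 and 0.13, and within letter B they were -0.21, -0.15 and 0.01. In C57 brain miR-101a-3p measured 15244, 22818, 16318, 17210 and 10247 RPM in the irradiated mice, against 11853 through 24697 to 33252 RPM in the sham mice. Here 5 of 5 irradiated libraries lay below the sham median for miR-101a-3p, miR-101b-3p and miR-101c alike, within overlapping ranges. The log2 changes were -0.46 (SE 0.25), -0.39 (SE 0.27) and -0.36 (SE 0.29), that of miR-101a-5p was 0.04 (SE 0.49), and the smallest limma adjusted p was 0.471. Leaving out 1 library at a time gave -0.61 to -0.29 for miR-101a-3p, -0.49 to -0.21 for miR-101b-3p and -0.47 to -0.066 for miR-101c. None of the names had an unadjusted p under 0.05 in brain, and edgeR and DESeq2 called 0 of them.

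In WBC the log2 changes were above 0 for all 3 names in both strains and none passed the test. In C3H they were 0.42 (SE 0.34) for miR-101a-3p, 0.26 (SE 0.25) for miR-101b-3p and 0.23 (SE 0.30) for miR-101c. In C57 they were 0.47 (SE 0.31), 0.20 (SE 0.23) and 0.51 (SE 0.28). The smallest limma adjusted p was 0.801, none had an unadjusted p under 0.05, 0% of the 291 miRNAs were called, and edgeR and DESeq2 called 0 of the names. With scaling by library size alone, under which the median log2 change of all miRNAs was -0.34 in C3H WBC, the sign of miR-101b-3p and miR-101c in C3H WBC turned, to -0.22 and -0.21, so no direction is given for them.

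In C3H RBC 2 names were lower at an unadjusted p under 0.05, and both values rested on 2 libraries. MiR-101a-3p measured 1466 RPM in irradiated mouse 2092 and 658 RPM in irradiated mouse 2094, while the other 5 irradiated mice ran from 2747 to 8745 RPM and the 8 sham mice from 3295 to 7730 RPM. MiR-101c measured 4.01 and 2.84 RPM in the same mice, the other irradiated mice ran from 16.1 to 42.8 RPM and the sham mice from 21.9 to 38.3 RPM. The log2 changes were -0.57 (SE 0.26, limma p = 0.0379) for miR-101a-3p, -0.74 (SE 0.36, limma p = 0.0451) for miR-101c and -0.10 (SE 0.18) for miR-101b-3p, and the smallest adjusted p was 0.248. Without mice 2092 and 2094 they were -0.17, -0.08 and -0.08, at an adjusted p of 0.993. Both mice carry letter B, and within that letter the log2 changes of miR-101a-3p and miR-101c were -0.69 and -1.23, against -0.32 and -0.01 within letter A. In C57 RBC the values were 0.20 (SE 0.26), -0.05 (SE 0.35) and 0.05 (SE 0.18) for miR-101a-3p, miR-101c and miR-101b-3p, at a limma adjusted p of 0.992. In both strains 0% of the 229 miRNAs were called by limma voom, and edgeR and DESeq2 called 0 of the names.

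The test of the difference between the strains in brain, WBC and RBC called 0% of all miRNAs. Of the 14 differences between strains computed for the names in heart, brain, WBC and RBC, 2 had an unadjusted limma p under 0.05, miR-101c in heart and miR-101a-3p in RBC, and 0 passed the adjustment. The 14 include miR-101a-5p in heart, which is a description only. Of all miRNAs, 51 of 312 in heart and 12 of 229 in RBC had an unadjusted p under 0.05 for this difference. Of the 30 irradiation values tested outside C3H lung, leaving out miR-101a-5p in C3H heart, 5 had an unadjusted p under 0.05 and 3 an adjusted limma p under 0.05, namely miR-101c in C57 lung and miR-101b-3p and miR-101c in C3H heart. Of all miRNAs, 16.6% in C57 lung and 16.7% in C3H heart had an adjusted p under 0.05. An unadjusted p under 0.05 was held by 117 of 350 in C57 lung, 102 of 312 in C3H heart and 43 of 229 in C3H RBC.

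Whether the names moved together was examined within each library, by the log2 ratio of their counts, which does not depend on the library total. A pseudocount of 0.5 was added, and irradiated and sham groups were compared by exact permutation tests (two-sided) with Benjamini-Hochberg adjustment over the 23 contrasts tested. Of these 6 had an unadjusted p under 0.05 and 0 an adjusted p under 0.05, the smallest being 0.186. The arms were not compared in blood because miR-101a-5p had at most 1 count there, a choice made after the counts were seen.

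**Figure D3:**
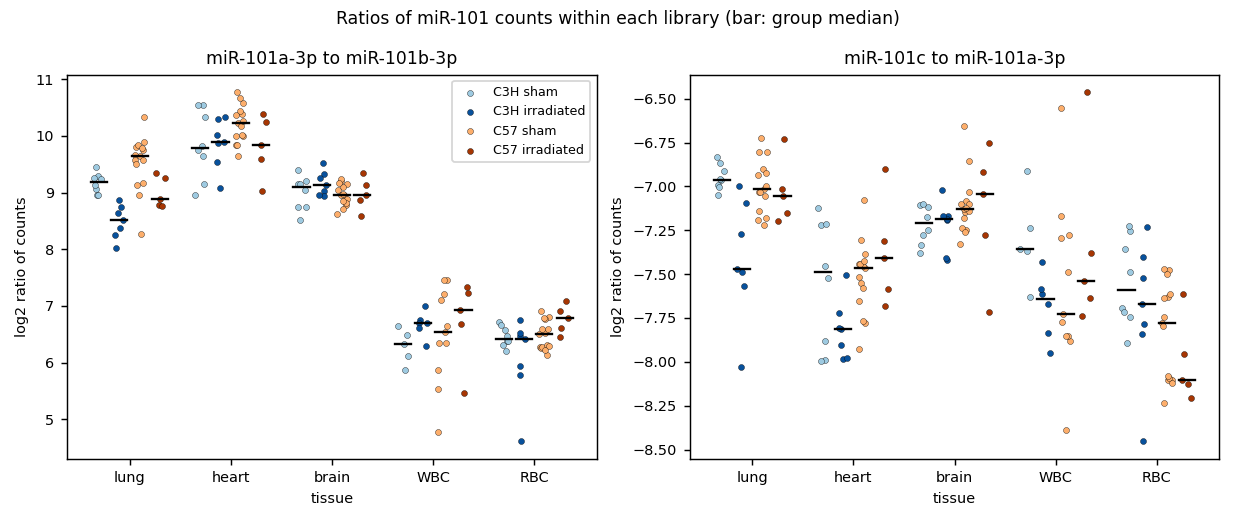
Log2 ratio of counts within each library (vertical axes), of miR-101a-3p to miR-101b-3p on the left and of miR-101c to miR-101a-3p on the right, by tissue (horizontal axes). Each point is 1 library and the bar is the group median. In C3H lung the 7 irradiated libraries lie at 8.87 or less on the left, below the 8 sham libraries at 8.95 or more.

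For the 2 gene copies, miR-101a-3p against miR-101b-3p, the log2 ratio in C3H lung was 9.17 ± 0.17 in sham (SD, n = 8) and 8.49 ± 0.29 in irradiated mice (SD, n = 7). The groups did not overlap, and the difference of -0.68 is given without a test. In C57 lung the ratio was 9.53 ± 0.49 in sham (SD, n = 15) and 9.01 ± 0.27 in irradiated mice (SD, n = 5), a difference of -0.52 with 5 of 5 irradiated libraries below the sham median (exact p = 0.0455, adjusted p = 0.186). In C57 heart the difference was -0.40 (exact p = 0.0799), or 0.051 among C57 males alone, and leaving out 1 library at a time gave -0.54 to -0.20. In C3H WBC the difference was 0.39 (exact p = 0.0433) and in C57 RBC 0.28 (exact p = 0.0485). In C3H heart and in both brains it was between 0.01 and 0.17, less than the spread between the libraries. In C57 WBC it was 0.25 (exact p = 0.600) and in C3H RBC -0.39 (exact p = 0.154), or -0.15 without irradiated mouse 2094. No difference of the copies passed the adjustment over the contrasts.

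For the arms of Mir101a, miR-101a-3p against miR-101a-5p, the log2 ratio in C3H heart was 12.2 ± 1.32 in sham (SD, n = 8) and 13.8 ± 1.15 in irradiated mice (SD, n = 7), a difference of 1.61 (exact p = 0.0289, adjusted p = 0.186). The difference was 2.30 within letter A and 0.85 within letter B, and 0.61 with a pseudocount of 5. In C3H brain it was 0.85 (exact p = 0.0441, adjusted p = 0.186), and 0.55 with a pseudocount of 5. In C57 heart it was 0.14, in C57 brain -0.33 and in C57 lung -0.52, each within the spread of the libraries. Among C57 males alone it was 0.93 in heart (exact permutation test, adjusted p = 0.159), -0.15 in brain and -0.18 in lung. In C3H lung the difference of -0.45 is given without a test, and it was -1.04 within letter A and 0.19 within letter B. These ratios rest on a handful of miR-101a-5p counts in a library.

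MiR-101c was 0.802% of miR-101a-3p at the median of sham C3H lungs, with a range of 0.756% to 0.878%. In log2 this nested ratio was -6.95 ± 0.07 in sham and -7.42 ± 0.34 in irradiated C3H lungs, and 6 of 7 irradiated libraries lay below all sham libraries. The difference of -0.47 is given without a test, and it was -0.68 within letter A and -0.31 within letter B. In C57 lung the ratio was -7.00 ± 0.15 in sham and -7.03 ± 0.18 in irradiated mice (exact p = 0.701). In C3H heart the difference was -0.27 (exact p = 0.0967), with -0.48 within letter A and -0.03 within letter B. In C3H WBC it was -0.38 (exact p = 0.0173, adjusted p = 0.186), with 3 of 6 irradiated libraries below all 5 sham libraries. In C57 heart it was 0.14 (exact p = 0.273) and in C57 WBC 0.22 (exact p = 0.430), and in both brains and in both RBC groups it lay between -0.18 and -0.01.

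**Figure D4:**
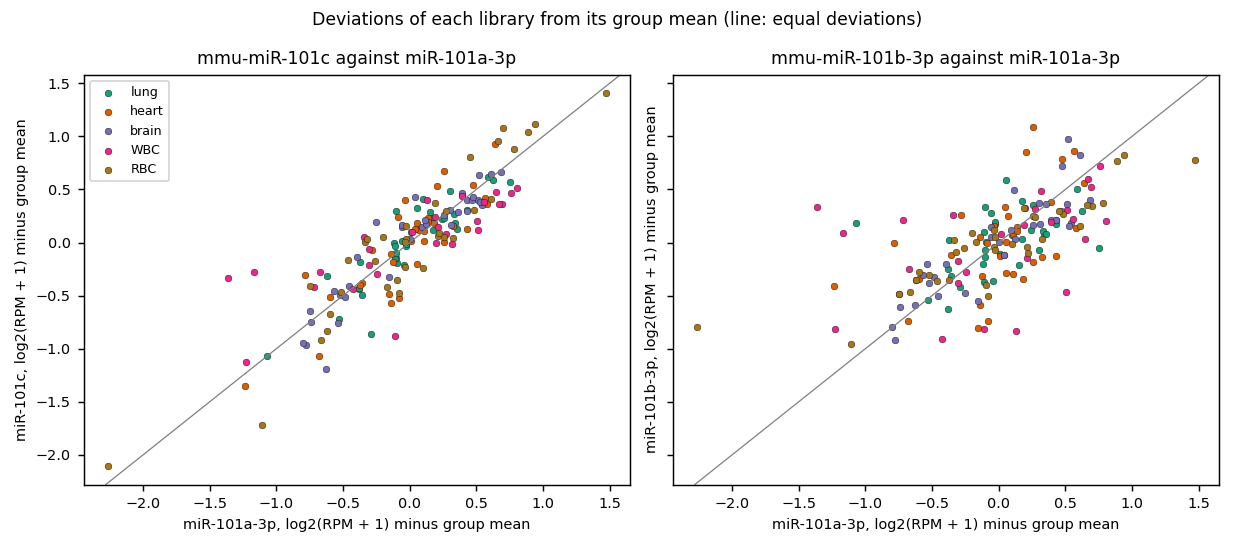
Deviation of each library from its group mean in log2(RPM + 1), for miR-101c (left) and miR-101b-3p (right, vertical axes) against miR-101a-3p (horizontal axes), with tissues by colour and a line of equal deviations. Over 167 libraries Pearson's r is 0.884 on the left and 0.649 on the right, where points scatter more widely.

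Between the libraries of a group the names also varied together to different extents, given here as Pearson's r of deviations from group means of log2(RPM + 1) over 167 libraries. Points of 1 library share its depth and composition, and the values are descriptions. MiR-101c followed miR-101a-3p at r = 0.884, and by tissue r ran from 0.796 in WBC to 0.940 in RBC. MiR-101b-3p followed miR-101a-3p at r = 0.649, from 0.389 in WBC and 0.458 in lung to 0.886 in RBC and 0.887 in brain. MiR-101a-5p followed miR-101a-3p at r = 0.273, with 0.440 in heart and 0.558 in brain, where it had most counts. With deviations taken from the means of each group and letter instead, a choice made after the data were seen, r was 0.863 for miR-101c, 0.600 for miR-101b-3p and 0.272 for miR-101a-5p. In brain these values were 0.901, 0.822 and 0.548. The names most like each member were sought among the 296 miRNAs with a mean of at least 10 RPM. For miR-101a-3p these were miR-101c, miR-192-5p (r = 0.679) and miR-674-5p (r = 0.674). For miR-101b-3p they were miR-301a-3p (r = 0.772), miR-101c (r = 0.752) and miR-106b-5p (r = 0.746), and for miR-101c they were miR-101a-3p, miR-20a-5p (r = 0.773) and miR-19b-3p (r = 0.773). For miR-101a-5p they were miR-376a-3p (r = 0.642), miR-136-5p (r = 0.633) and miR-143-5p (r = 0.615).

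Sham females of the 2 strains were compared in each tissue, since all C3H mice were female. Of the 17 differences tested, 2 passed the adjustment, both for miR-101b-3p and both higher in C3H. In heart miR-101b-3p ran from 7.22 through 13.6 to 29.5 RPM in 8 C3H females and from 4.67 through 6.77 to 8.50 RPM in 7 C57 females. The ranges overlapped, and the log2 difference was 0.49 (SE 0.19, limma adjusted p = 0.0495), with 13.1% of all miRNAs higher in C3H at this adjusted p. Of 20 alternatives 8 kept the adjusted p under 0.05, over a range of 0.00582 to 0.129, and without sham C3H mouse 2076 it was the 0.129. Without sham C3H mouse 2075, whose heart library stood apart in leukocyte markers, the log2 difference was 0.46 (limma adjusted p = 0.0939).

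In WBC miR-101b-3p measured 31.0, 34.0, 43.3, 31.5 and 53.3 RPM in the 5 C3H females and between 24.3 and 45.0 RPM in the 4 C57 females. The ranges overlapped, while the normalised log2 difference was 0.95 (SE 0.27, limma adjusted p = 0.0136), with 10.6% of all miRNAs higher in C3H. With scaling by library size alone it was 0.30 (limma adjusted p = 0.453), without C57 mouse 1076 it was 0.84 (adjusted p = 0.0571) and without C57 mouse 1086 it was 0.83 (adjusted p = 0.0559). By the call rule limma voom called 0 names in each tissue, where it called 5.54% of all miRNAs in lung, 11.4% in heart and 3.04% in brain, and in blood 16.1% (WBC) and 7.19% (RBC). DESeq2 called 1, miR-101a-5p in heart, where the limma adjusted p was 0.309, and edgeR called 0. In these hearts miR-101a-5p ran from 3.08 to 8.35 RPM in C3H females of letter A and from 0.289 to 2.16 RPM in those of letter B. The C57 females ran from 0.295 to 3.68 RPM, so the high values were those of letter A. In lung the differences were -0.17 for miR-101a-3p, 0.13 for miR-101b-3p and -0.27 for miR-101c, with a smallest limma adjusted p of 0.532.

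Other miRNAs known to repress the same targets were followed as lists. Of the 8 that repress Ezh2, miR-26a-5p and miR-26b-5p had log2 changes of -0.76 (SE 0.23) and -0.75 (SE 0.18) in C3H lung, given as a description, and the median of the list was -0.13 against -0.08 for all miRNAs. In C57 lung 0 of the 8 passed the test, where 16.6% of all miRNAs did, with a list median of -0.09 against -0.05, and miR-26a-5p was at -0.56 (limma adjusted p = 0.0838). In C3H heart 0 of the 8 passed, where 16.7% of all miRNAs did, with a list median of -0.16 against -0.03. In the other irradiation contrasts 0 of the 6 to 8 members tested passed the test, where 3.53% of all miRNAs did in C57 heart and 0% in brain, WBC and RBC. Of the 3 that repress Atm, miR-100-5p, miR-18a-5p and miR-421-3p, 0 passed in each irradiation contrast with a test, with list medians of 0.26 in C57 lung and 0.27 in C3H heart, and the C3H lung median was 0.15.

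Between sham females of the strains, members of these lists differed in each tissue, and the share of all miRNAs that differed in either direction is given beside each count. In lung 2 of the 8 Ezh2 list members differed, against 14.4% of all miRNAs. MiR-138-5p was lower in C3H, by -0.94 on the log2 scale (limma adjusted p = 0.00122), and let-7b-5p was higher, by 0.73 (adjusted p = 0.00893). In heart 1 of the 8 differed, let-7c-5p at -0.65 (limma adjusted p = 0.0211), against 31.6% of all miRNAs. In brain 1 of the 7 tested differed, miR-124-3p at 0.73 (limma adjusted p = 0.0448), against 15% of all miRNAs. In WBC 2 of the 6 tested differed, against 22.3% of all miRNAs, miR-26b-5p being higher in C3H at 1.11 (limma adjusted p = 0.0122) and miR-138-5p lower at -1.15 (adjusted p = 0.0359). In RBC 2 of the 6 tested differed, against 18.3% of all miRNAs, and both were lower in C3H, miR-26a-5p at -0.87 (limma adjusted p = 1.91e-06) and miR-26b-5p at -0.78 (adjusted p = 0.0296). Of the Atm list, miR-100-5p was lower in C3H lung, at -0.75 (limma adjusted p = 0.0214), and in C3H heart, at -1.09 (adjusted p = 0.0183), as 1 of the 3 in each. MiR-18a-5p was lower in C3H RBC, at -0.50 (limma adjusted p = 0.00685), as 1 of the 2 tested, and in brain and WBC none of the Atm list passed the test.

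Seed neighbours were counted as the other names that share bases 2 to 7 with a member. There were 2, miR-144-3p, which shares them with miR-101a-3p, and miR-582-5p, which shares them with miR-101b-3p. MiR-144-3p was a blood miRNA here, with a mean of 14621 RPM in RBC, and in sham C3H mice it ran from 11423 through 18708 to 23930 RPM there against 24.5 through 56.2 to 198 RPM in lung. In RBC its median thus exceeded that of miR-101a-3p, whereas in lung it was far below. In the irradiation contrasts with a test 0 of the neighbours tested passed it, against the same shares of all miRNAs as for the lists, 16.6% in C57 lung, 16.7% in C3H heart, 3.53% in C57 heart and 0% elsewhere. In sham females miR-144-3p was higher in C3H than in C57 heart, by 1.88 on the log2 scale (SE 0.56, limma adjusted p = 0.0152), and in brain, by 1.61 (SE 0.45, limma adjusted p = 0.0177), and miR-582-5p was higher in heart, by 3.34 (SE 0.52, limma adjusted p = 9.82e-06). The shares of all miRNAs that differed were 31.6% in heart and 15% in brain. MiR-144-3p is also 1 of the 4 erythrocyte markers. Of the other 3, miR-451a was higher in C3H heart, by 1.99 (limma adjusted p = 0.000259), and in C3H brain, by 2.01 (adjusted p = 0.00128). MiR-486a-5p was lower in C3H heart, by -1.05 (limma adjusted p = 0.0299), and was at -0.66 in brain (adjusted p = 0.324), while miR-144-5p was at 0.70 and 1.03 (adjusted p = 0.0769 and 0.0793). Their part in the difference of miR-144-3p was not tested. In lung, WBC and RBC 0 of the neighbours tested passed the test between the strains.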

How the data were processed

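Small RNA libraries were prepared by the authors with a QIAseq kit and sequenced on a NextSeq 550. Trimmed reads were aligned to mouse miRNAs of mm10 in BaseSpace, and runs with few miRNA reads were rejected. The deposited tables, 1 per tissue, hold raw read counts of 1915 miRNAs without normalisation. Use of molecular identifiers and assignment of reads that fit several names were not stated, so counts of single libraries carry at least counting error. In total, 167 libraries of 35 mice were grouped by their labels into 20 groups.

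Counts were filtered with filterByExpr (edgeR 4.0.16, count minimum 10, total minimum 15), transformed by voom to quantile-normalised log2 RPM and fitted with limma 3.58.1 in R 4.3.3, 1 fit per tissue with 4 groups, or 6 groups with sex for sham females. Adjusted p-values are Benjamini-Hochberg over all miRNAs tested in the tissue. Ratios and exact permutation tests used Python 3.11.15 and SciPy 1.17.1. Every column named a sample (0 of no sample), and libraries of a group differed by more than sampling noise, so each was 1 replicate, a separate mouse. The fits were tried on simulated counts with changes put in, as a check of the code, and no result given here rests on it. Alternatives tried were DESeq2 1.42.0, the quasi-likelihood test of edgeR, library size alone, no filter, no fold minimum, letter or sex as a covariate, another pseudocount, C57 males alone and each library left out. Fits and correlations within a letter, and fits of RBC without 2 mice, were added after the data were seen. The members and lists were chosen with earlier results of these data known. Named are the 4 members, fixed lists of Ezh2 and Atm repressors and of marker miRNAs, seed neighbours, nested names and the 3 miRNAs most like each member.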

Additional observations from a re-analysis of the deposited data

Results flagged for a closer look

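A library far from the rest of its group was sought in groups of 4 to 10 libraries, one for each name, tissue, strain and irradiation. Of these 60 groups, 12 in which every library had under 10 counts were left out, 48 were examined, and 4 distant values were found. The critical value is the 95% one, so chance marks about 1 in 20 independent groups, and these groups are not independent, since they share libraries and mice. In sham C3H brain, mouse 2085 had the highest miR-101a-5p, at 7.30 RPM with the next at 2.65 RPM, and also the highest miR-101b-3p, at 95.4 RPM with the next at 61.8 RPM. Its brain library also had the highest summed erythrocyte markers, at 441 RPM, and leukocyte markers, at 1216 RPM, of all brain libraries. In irradiated C57 mice, mouse 1089 had the lowest miR-101b-3p in WBC, at 23.1 RPM with the next at 47.2 RPM, and the lowest miR-101c in brain, at 48.5 RPM with the next at 125.7 RPM. This mouse is the 1 female of the group and carries letter B. In WBC miR-101b-3p measured 24.5 and 31.4 RPM in the 2 sham C57 females of letter B and ran from 38.9 to 67.1 RPM in the sham males. In brain miR-101c measured 77.3, 88.2 and 88.6 RPM in the 3 sham C57 females of letter B and ran from 136 to 207 RPM in the sham males. With sex as a covariate the log2 changes were 0.16 for miR-101b-3p in C57 WBC (limma adjusted p = 0.884) and -0.50 for miR-101c in C57 brain (adjusted p = 0.295). With single libraries left out, the log2 change ran from -0.47 to -0.066 for miR-101c in C57 brain and from 0.072 to 0.39 for miR-101b-3p in C57 WBC. In C3H brain it ran from -0.79 to -0.46 for miR-101a-5p and from -0.12 to 0.15 for miR-101b-3p.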

How the results depend on the processing

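Strain stands for sham C3H against sham C57 females. Of the changes and differences of single names under alternative settings, 1083 kept their direction and their side of the call rule, 5 moved, 4 crossed the rule (miR-101a-5p, past the rule in C3H heart through the filter on low counts, was not past it with no filter and within letter B alone, DESeq2 called miR-101a-5p in strain heart, and miR-101b-3p was called in strain WBC without C57 mouse 1073) and 70 changed sign. Of the ratios, 403 kept both and 27 changed sign. All sign changes were of values that did not pass the test in the reported analysis.

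Members called: with no fold minimum the counts were 3 in C3H heart, or 2 without miR-101a-5p, which entered through its high group, and 1 in C57 lung, strain heart and strain WBC. The shares of all miRNAs that passed without a fold minimum were 16.7% in C3H heart, 16.6% in C57 lung, 31.6% in strain heart and 22.3% in strain WBC. DESeq2 called 1 in strain heart. No count is given for C3H lung. With no filter, and within letter B alone, 0 were called in C3H heart. Leaving out 1 library gave 0 to 1 in strain WBC, the 1 without C57 mouse 1073.

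Signs by setting: edgeR turned strain heart miR-101a-3p to -0.079 and miR-101c to -0.0084, C3H brain miR-101b-3p to -0.022, C57 brain miR-101a-5p to -0.29, C57 RBC miR-101b-3p to -0.087 and miR-101c to 0.015, and strain RBC miR-101a-3p to 0.084. DESeq2 gave -0.012, -0.26, -0.16 and 0.0053 for C3H brain miR-101b-3p, C57 brain miR-101a-5p, C57 RBC miR-101b-3p and strain RBC miR-101a-3p. Library size alone gave 0.072 for C57 heart miR-101b-3p, -0.073 for C3H brain miR-101b-3p, -0.083 for C57 brain miR-101a-5p, -0.22 and -0.21 for C3H WBC miR-101b-3p and miR-101c, -0.20 for strain WBC miR-101c, -0.12 for C57 RBC miR-101b-3p and 0.10 for strain RBC miR-101a-3p. Letter A alone gave 0.034 and 0.074 for C57 heart miR-101a-3p and miR-101b-3p and 0.032 for C57 RBC miR-101c. Letter B alone gave -0.21 and -0.15 for C3H brain miR-101a-3p and miR-101b-3p, -0.052 for C57 brain miR-101a-5p, 0.062 for C3H RBC miR-101b-3p, and -0.10 and -0.042 for C57 RBC miR-101a-3p and miR-101b-3p. Letter as a covariate gave -0.012 for C3H brain miR-101b-3p and -0.047 for C57 brain miR-101a-5p, which was -0.056 with no filter and -0.031 with sex as a covariate.

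Ratios: C57 males alone turned the copies to 0.051 in C57 heart and -0.028 in C57 brain and the nested ratio to -0.074 and 0.032 in the same tissues. A pseudocount of 5 gave -0.00706 and -0.00727 for the copies in C3H heart and C57 brain and -0.089 for the arms in C57 heart.

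Leaving out single libraries: C57 heart miR-101a-3p -0.37 to 0.054 and miR-101b-3p -0.12 to 0.014, strain heart miR-101c -0.011 to 0.22, C3H brain miR-101a-3p -0.098 to 0.13 and miR-101b-3p -0.12 to 0.15, C57 brain miR-101a-5p -0.19 to 0.14, C57 RBC miR-101b-3p -0.011 to 0.12 and miR-101c -0.24 to 0.058, strain RBC miR-101a-3p -0.12 to 0.068 and miR-101b-3p -0.070 to 0.20. For the copies it gave -0.11 to 0.15 in C3H heart and -0.077 to 0.11 in C57 brain, and for the nested ratio -0.11 to 0.0095 in C57 lung, -0.039 to 0.027 in C3H brain, -0.13 to 0.11 in C57 brain and -0.0042 to 0.32 in C57 WBC. The cause of these changes was not tested.

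With library size alone the median log2 change of all miRNAs was 0.27 in C3H lung, 0.12 in C57 lung, -0.17 in C3H heart, -0.34 in C3H WBC and -0.35 in C3H RBC. Depth limits miR-101a-5p, with 28 counts at most. No paired analysis was possible because sham and irradiated groups hold different mice, each with 1 library per tissue.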
